A study of Homo sapiens with 28 samples.

Results

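Medium conditioned by U2OS cells treated with etoposide was compared with medium from U2OS cells given DMSO, the solvent control, by sequencing RNA from U2OS cells that had been kept in each medium for 8 h. U2OS is a human osteosarcoma line that carries wild-type p53, and here both the donors of the medium and its recipients were p53 wild type (WT). The comparison took in all genes with a mean raw count of at least 20 over the 10 RNA libraries. The rule names no group, but genes with few reads in DMSO medium can pass it through the etoposide media. CCL4, with 2 and 0 counts in DMSO medium and 161 and 119 in etoposide medium, did so. So did CEACAM1, with 2 and 3 counts against 53 and 46. The rule kept 13638 of the 25807 gene symbols in the table, and 12169 fell below it, of which 3791 had no read in any of the 10 libraries. ALDH1A3 and EMX1 stood just inside the limit with a mean of 20.0 counts, and PCDH11X and TMPRSS3 just outside it with 19.9.

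Recipients of "WT DMSO" medium were 2 libraries, A and B, collected after 8 h in medium from p53 WT donors without drug (the titles call these donors DMSO-treated and the treatment field calls them untreated). Recipients of "WT etoposide" medium were 2 libraries collected after 8 h in medium from p53 WT donors that had received etoposide at 31.6 µM. Values from 3 further groups of 2 libraries are set beside them: cells at T0 (0 h), and cells after 8 h in medium from p53 knockout (KO) donors with the same dose of etoposide or without it. Recipient cells were labelled p53 WT in all 10 libraries, so that the knockout concerns the donors alone. How long the donors were treated, how much drug the medium still held, and whether the knockout line was 1 clone were not stated in the labels. Nothing in the labels says that libraries A and B came from separate cultures, so p-values measure only the spread between these samples, which may be technical.

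Etoposide stabilises topoisomerase II on cut DNA and so leaves double-strand breaks. In cells with p53, breaks stabilise that transcription factor, which induces the cell cycle inhibitor CDKN1A (p21), its own ubiquitin ligase MDM2, and genes of repair and apoptosis, while genes of mitosis are repressed through the DREAM complex at promoter elements that include the CHR. NF-kB is a family of transcription factors held in the cytoplasm by inhibitors such as NFKBIA. Once released it induces cytokines, chemokines and survival genes together with its own inhibitors. Many of its products are secreted, and damaged cells are known to release factors that act on their neighbours.

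The promoters of 4 genes are shown because these genes stand for the NF-kB targets that were higher and the mitotic genes that were lower, and because each holds a match to the respective element; they were picked after their values and matches were seen. Each window runs from 250 bases before to 50 bases after the RefSeq transcription start on GRCh38.p14, 5′ to 3′ on the plus strand, at chr11:102317234-102317533 (BIRC3), chr2:227813592-227813891 (CCL20), chr16:23678639-23678938 (PLK1) and chr1:43358731-43359030 (CDC20). Capitals mark an NF-kB consensus match in BIRC3 and CCL20, and the CHR hexamer TTTGAA or its reverse complement in PLK1 and CDC20.
BIRC3: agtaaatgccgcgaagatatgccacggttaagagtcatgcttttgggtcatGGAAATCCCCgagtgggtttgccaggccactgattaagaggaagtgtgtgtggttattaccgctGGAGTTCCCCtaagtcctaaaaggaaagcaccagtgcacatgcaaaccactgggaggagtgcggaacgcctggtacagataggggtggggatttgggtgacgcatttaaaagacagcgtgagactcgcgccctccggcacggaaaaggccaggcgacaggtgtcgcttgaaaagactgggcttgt
CCL20: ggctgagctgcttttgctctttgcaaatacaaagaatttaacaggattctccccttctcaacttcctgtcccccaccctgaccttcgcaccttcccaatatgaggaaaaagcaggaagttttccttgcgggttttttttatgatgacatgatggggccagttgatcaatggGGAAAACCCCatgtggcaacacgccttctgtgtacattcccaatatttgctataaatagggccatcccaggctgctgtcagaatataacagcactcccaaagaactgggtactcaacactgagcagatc
PLK1: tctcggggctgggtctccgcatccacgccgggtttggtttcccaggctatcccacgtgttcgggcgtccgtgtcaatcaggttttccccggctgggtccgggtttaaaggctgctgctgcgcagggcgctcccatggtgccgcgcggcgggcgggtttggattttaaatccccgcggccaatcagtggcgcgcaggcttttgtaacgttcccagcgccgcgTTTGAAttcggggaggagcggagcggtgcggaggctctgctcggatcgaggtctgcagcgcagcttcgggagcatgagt
CDC20: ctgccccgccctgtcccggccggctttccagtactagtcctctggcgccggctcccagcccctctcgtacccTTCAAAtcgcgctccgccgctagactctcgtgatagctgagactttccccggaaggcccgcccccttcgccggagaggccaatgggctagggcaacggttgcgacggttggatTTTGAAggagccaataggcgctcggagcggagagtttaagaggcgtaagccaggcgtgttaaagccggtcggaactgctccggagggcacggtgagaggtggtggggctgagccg
The matches begin 199 and 135 bases before the start in BIRC3, 79 in CCL20, 29 in PLK1, and 178 and 65 in CDC20. RefSeq promoters were found for 10777 of the 13638 genes. Searched on both strands, the CHR was in 16 of the 26 promoters found for the G2 and M phase list described below (61.5%), in 9.47% of the promoters of all genes measured here and in 15.4% of all 27305 RefSeq promoters. An NF-kB match was in 8 of the 17 promoters of the NF-kB list (47.1%), against 6.59% of measured genes and 5.72% of all promoters. Among genes higher by over 1 log2 unit, 12.8% (39 of 304) had the AP-1 element TGANTCA, against 4.76% of measured genes and 7.76% of all promoters, 10.9% (33) an NF-kB match and 9.87% a CHR. Among genes lower by over 1 log2 unit, 4.44% (12 of 270) had the AP-1 element, 3.33% (9) an NF-kB match and 24.8% a CHR. The p53 half-site was in 3 of 24 promoters of p53 targets (12.5%), against 6.54% of all promoters. A match is a description of these letters and not evidence of binding.

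The 10 libraries held 16825669 to 20290764 counts, with WT etoposide B the lowest, and the 13638 genes held 99.82 to 99.87% of them. Markers of bone and mesenchyme were present (10 of 15 at 1 CPM or more in both libraries of either medium), with summed CPM of 13600 to 14000 in WT DMSO and 11900 to 13900 in WT etoposide medium. Of 9 haematopoietic markers only CD68 and, in etoposide medium, CSF1R reached that level, and their sums were 12.5 to 13.2 and 15.7 to 16.6. Endothelial sums were 4.77 to 6.25 and 5.82 to 6.34. Epithelial markers were expressed (7 of 9, with KRT8 and KRT18 the most abundant), at sums of 1180 to 1210 in DMSO and 1300 to 1340 in etoposide medium, and neural markers (4 and 3 of 6) at 42.7 to 44.0 and 53.4 to 57.1. The part of these levels in the results was not tested. These marker levels are counts-per-million (CPM) values of all counts, without further scaling. SP7, BGLAP and IBSP, which mark osteoblasts, and TWIST1, a mesenchymal factor, were at or near 0 in all 4 libraries. COL1A2 was at 0.558 to 0.755 CPM there, beside COL1A1 at 7390 to 9290. The KO DMSO B library stood apart from its partner, with a median difference of 0.129 log2 units between A and B against 0.06 to 0.088 in the other groups; it enters the WT comparison through the count limit, the scaling and the shared estimate of spread, but not through the levels compared.

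Medium from etoposide-treated WT donors changed 5194 of 13638 genes (38.1%) at an adjusted p under 0.05 in edgeR's quasi-likelihood test, 2407 higher (17.6%) and 2787 lower (20.4%). These shares are the background for the counts of every gene list below. Differences are log2 fold changes of etoposide over DMSO medium, with the standard error after ±, and levels are from here on counts-per-million values scaled by TMM, a normalisation for library composition. Most changes were small: the median size was 0.48 among the higher and 0.49 among the lower genes, and 1266 and 1430 of them moved by under 0.5. Large changes were more often upward. The genes past 1 log2 unit were 412 higher (3.02%) and 340 lower (2.49%), those past 2 units were 84 and 17, and those past 3 units were 25 and 1. The 2 libraries of one medium did not overlap the 2 of the other for 2405 of the 2407 higher genes and all 2787 lower ones. A call with 2 libraries a group nearly requires this, so it is no separate support. The share over all 13638 genes was not counted. The split of higher against lower depended on scaling, with 3100 higher and 2361 lower under upper quartile factors, although that moved the median of all genes only from 0.007 to 0.058. In bulk RNA, fewer cells of a type and less RNA per cell cannot be told apart.

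**Figure D1:**
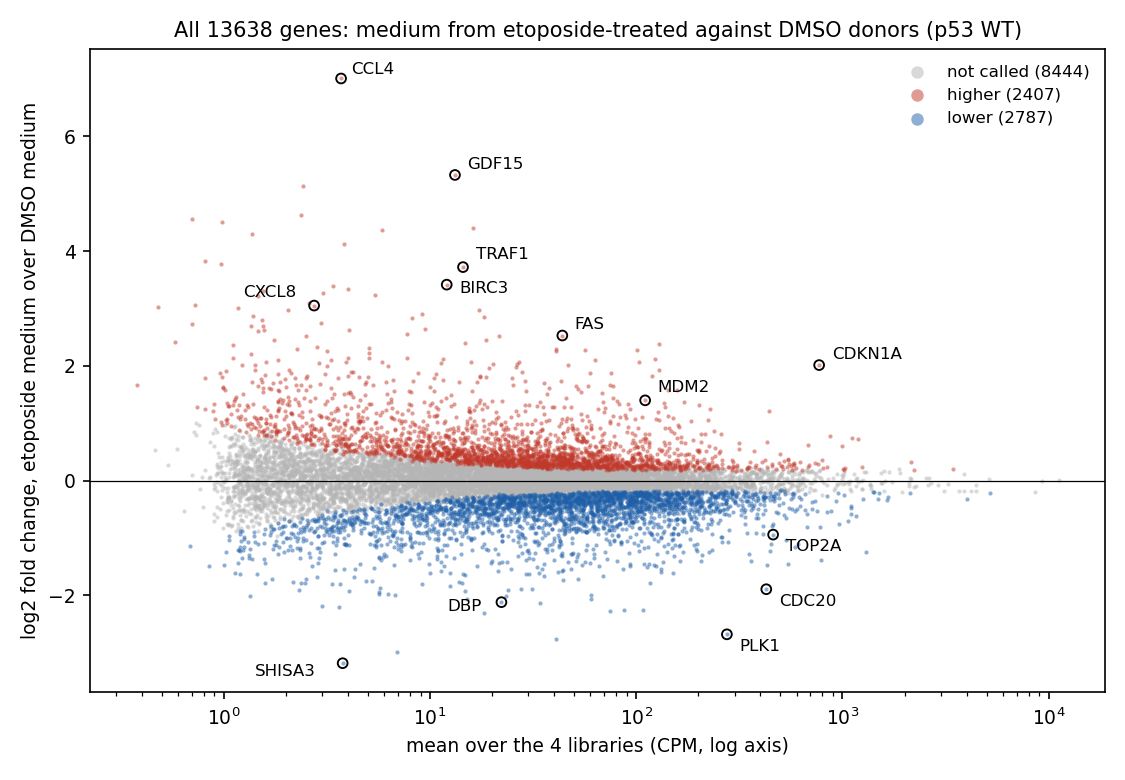
Log2 fold change (etoposide over DMSO medium, p53 WT donors) of 13638 genes against their mean CPM over the 4 libraries (log axis), with called genes in red (2407 higher) and blue (2787 lower) and 13 genes circled. CCL4 and GDF15 lie farthest up, at 7.01 and 5.33, and SHISA3 and PLK1 among the farthest down, at −3.18 and −2.68.

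Among the largest rises were a chemokine pair, a stress cytokine and survival genes. CCL4 (MIP-1 beta), a chemokine that attracts monocytes and lymphocytes, had 2 counts in the WT DMSO libraries together and 280 in the WT etoposide libraries, a ratio of 146 (95% exact interval 40.0 to 1210, counting error only). Its neighbour CCL3 stood at 0.204 and 0.0506 CPM in DMSO medium (libraries A and B) and at 4.06 and 5.39 in etoposide medium (5.14 ± 0.43, adjusted p = 6.74e-08). Both have near-identical copies in the genome, and how reads were split between copies is not given. GDF15, a secreted TGF-beta family member induced by p53 and by stress, rose from 0.715 and 0.557 to 25.1 and 26.5 CPM (5.33 ± 0.18, adjusted p = 1.91e-12). For all 3 genes T0 lay between the media. No overlap between the media was a condition for a place among these largest rises.

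BCL2A1, an anti-apoptotic BCL2 family member, rose from 0.204 and 0.152 to 4.51 and 4.65 CPM (4.63 ± 0.64, adjusted p = 2.40e-05). PVRL4 (nectin-4), an adhesion molecule, rose from 1.53 and 1.37 to 30.7 and 31.2 CPM (4.41 ± 0.15, adjusted p = 1.91e-12). ESM1 (endocan), a secreted proteoglycan, rose from 0.409 and 0.658 to 11.6 and 10.7 CPM (4.37 ± 0.50). The adhesion receptor CEACAM1 (4.30 ± 0.39), TNFRSF14, the receptor of LIGHT (3.39 ± 0.27), and the riboflavin transporter SLC52A1 (3.23 ± 0.21) followed. TRAF1 and BIRC3, which relay and limit TNF receptor signals, and the chemokine CCL20 completed this set together with 3 transcripts whose reads are less certain. NBEAP1 (4.13 ± 0.29) and MYH16 (3.34 ± 0.35) are pseudogenes, and the strand setting that reads of KLLN (3.28 ± 0.29) depend on was not stated in the labels.

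The largest falls combined mitotic genes with regulators of development and of the clock. SHISA3, an antagonist of WNT and FGF receptors, went from 7.10 and 6.48 CPM in DMSO medium to 0.545 and 0.964 in etoposide medium (−3.18 ± 0.25, adjusted p = 3.74e-08). BMF, a pro-apoptotic BH3-only protein, went from 14.9 and 9.67 to 1.68 and 1.36 CPM (−3.00 ± 0.36, adjusted p = 5.72e-06). PIF1, a DNA helicase, went from 73.0 and 69.9 to 10.4 and 10.7 CPM (−2.76 ± 0.09, adjusted p = 1.91e-12). PLK1, the kinase that drives entry into mitosis, went from 494 and 459 to 76.5 and 72.1 CPM (−2.68 ± 0.09). In each of these 4 genes both etoposide libraries lay below T0. Lying below both DMSO libraries was a condition for a place among these largest falls. Spindle genes were among the others: PSRC1 (−2.26 ± 0.10), KIF20A (−2.25 ± 0.09), GAS2L3 (−2.14 ± 0.12) and ASPM (−2.06 ± 0.09). The remaining ones were SAPCD2 (−2.28 ± 0.08), which acts in spindle orientation, the GTPase-activating protein STARD8 (−2.31 ± 0.14), the protocadherin PCDH18 (−2.20 ± 0.25), the BMP-induced factor ATOH8 (−2.18 ± 0.26), the clock output factor DBP (−2.12 ± 0.23), PRR36 (−2.06 ± 0.23) and HOXD10 (−2.02 ± 0.40).

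**Figure D2:**
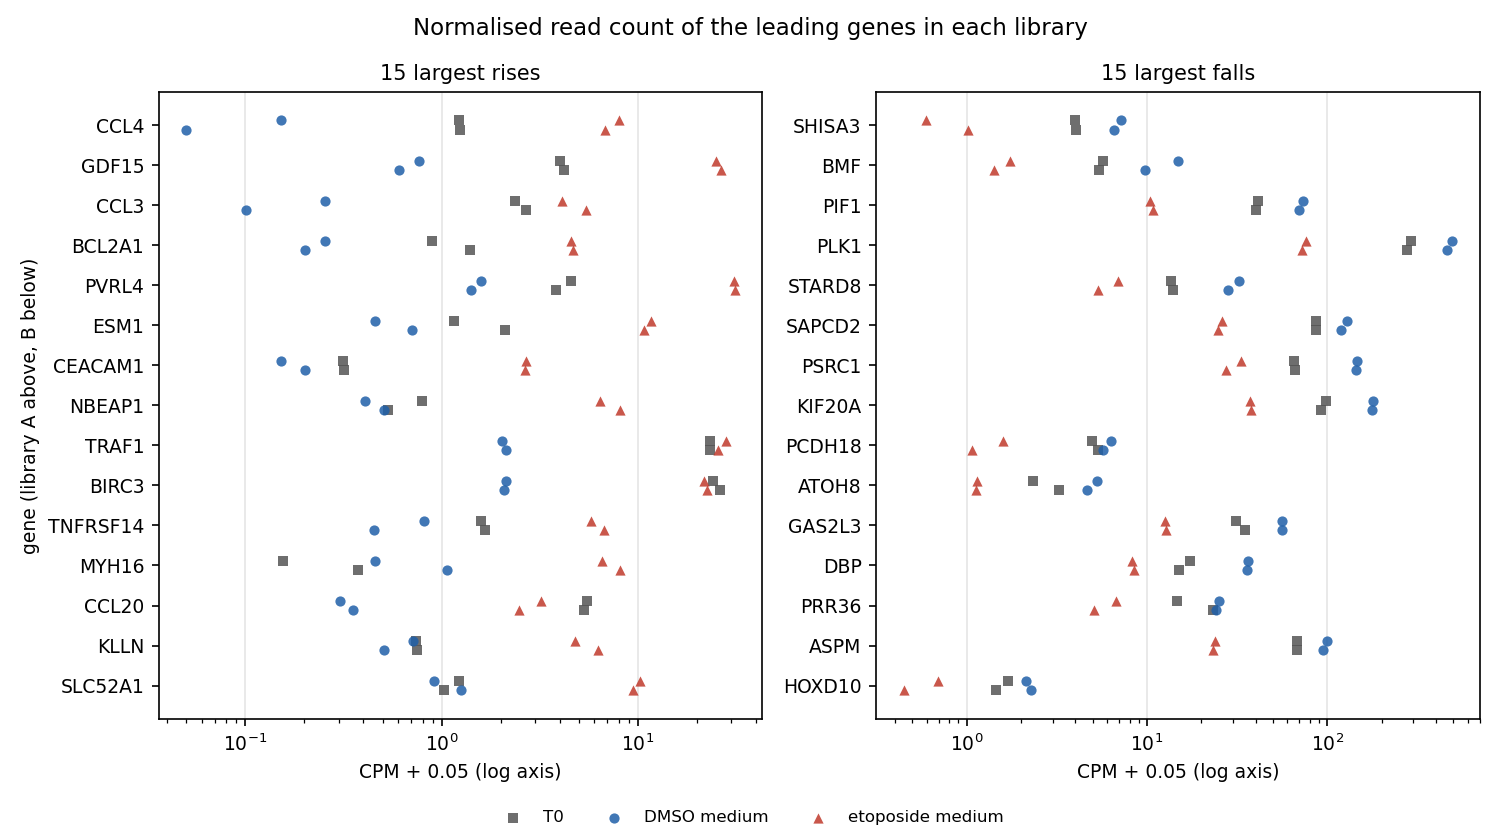
CPM plus 0.05 (log axis) of the 15 genes that rose most and the 15 that fell most, with each library a point: grey squares T0, blue circles WT DMSO medium, red triangles WT etoposide medium. In every row the 2 red triangles are on one side of the 2 blue circles, which was a condition for choosing these genes. TRAF1 and BIRC3 at T0 sit beside the etoposide libraries (23.3 and 23.3, 24.1 and 26.3 CPM), far above the DMSO libraries.

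The p53 target genes of the recipients rose together. All 30 measured members of the list were higher in etoposide medium and 0 were lower, with a median of 1.31, against 17.6% higher and a median of 0.01 over all genes. CDKN1A, the p21 inhibitor of cyclin-dependent kinases, stood at 293 and 319 CPM in DMSO medium and at 1250 and 1220 in etoposide medium (2.01 ± 0.09, adjusted p = 8.33e-11). MDM2 went from 57.5 and 64.0 to 159 and 162 CPM (1.40 ± 0.08, adjusted p = 3.94e-10). FAS, the death receptor, went from 12.8 and 13.1 to 75.8 and 73.7 CPM (2.53 ± 0.09, adjusted p = 3.54e-12). BTG2, an antiproliferative factor, went from 42.5 and 49.5 to 201 and 198 CPM (2.12 ± 0.09). The etoposide libraries lay above the DMSO libraries for each of these genes.

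Members with different tasks moved by different amounts, from BAX, the pore-forming apoptosis effector (0.46 ± 0.07), to GDF15; those named in this paragraph were chosen after their values were seen. In cell cycle arrest, PLK3 stood at 2.27 ± 0.13 and GADD45A at 1.44 ± 0.08. In apoptosis, the BH3-only genes BBC3 (PUMA) and PMAIP1 (NOXA) stood at 2.10 ± 0.10 and 1.08 ± 0.10, and the death receptor TNFRSF10B at 1.11 ± 0.08. In DNA repair, the damage recognition genes XPC and DDB2 stood at 1.34 ± 0.08 and 1.09 ± 0.07, the translesion polymerase POLH at 0.87 ± 0.08, and RRM2B, which supplies deoxynucleotides, at 1.57 ± 0.08. The antioxidant and nutrient-sensing sestrins stood at 2.03 ± 0.14 (SESN1) and 0.76 ± 0.08 (SESN2), and C12orf5 (TIGAR), which diverts glucose from glycolysis, at 1.36 ± 0.08. Feedback inhibitors rose too, with PPM1D (WIP1 phosphatase) at 1.28 ± 0.07. At T0, 19 of the 30 lay between the media and 11 below both, and the median member in etoposide medium was 1.22 log2 units above T0. The 30 calls were made under each of the 12 other settings tried.

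Genes of the G2 and M phases fell as uniformly as p53 targets rose. All 32 members were lower and 0 higher, with a median of −1.23 and a range of −2.68 to −0.32, against 20.4% lower over all genes. CDC20, the activator of the anaphase-promoting complex, stood at 687 and 660 CPM in DMSO medium and at 187 and 175 in etoposide medium (−1.89 ± 0.07, adjusted p = 6.85e-12). TOP2A, the topoisomerase that etoposide targets and a gene of the G2 phase, went from 608 and 605 to 327 and 304 CPM (−0.94 ± 0.07, adjusted p = 2.12e-08). Further members, given here after their values were seen, were the mitotic cyclins CCNB1 (−1.40 ± 0.07) and CCNB2 (−1.49 ± 0.10), the kinases AURKA (−1.62 ± 0.07) and BUB1 (−1.53 ± 0.07), and the transcription factor FOXM1 (−0.80 ± 0.07). CDK1 moved least (−0.32 ± 0.07, adjusted p = 0.00254). At T0 all 32 genes lay between the media: the median member was 0.51 log2 units above T0 in DMSO medium and 0.74 below it in etoposide medium. All 32 calls were made under each of the 12 other settings.

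S phase genes did not follow the mitotic ones. Of 32 DNA replication and S phase genes, 5 were higher (15.6%), 7 lower (21.9%) and 20 not called, with a median of −0.08. These shares are near the 17.6% and 20.4% over all genes. PCNA, the sliding clamp of DNA polymerases and also a p53 target, went from 90.6 and 89.7 to 195 and 198 CPM (1.13 ± 0.08, adjusted p = 8.78e-09). The G1/S cyclin CCNE1 was also higher (71.7 and 79.8 against 105 and 109 CPM, 0.50 ± 0.08), while the activator E2F2 was lower (40.7 and 34.6 against 15.7 and 18.4 CPM, −1.15 ± 0.13, adjusted p = 3.56e-06). Of the MCM helicase subunits only MCM6 was called (−0.43 ± 0.10), and MCM2 had a value of −0.03 ± 0.09. Without etoposide A the lower genes of this list were 3, and under upper quartile factors the higher ones were 8. Histone cluster genes had 7 of 11 members lower and 0 higher, with a median of −0.49. HIST1H2AC went from 9.14 and 8.91 to 2.87 and 1.76 CPM (−1.94 ± 0.19), and HIST1H2BK from 276 and 289 to 200 and 206 CPM (−0.48 ± 0.07). Histone genes are near copies of each other, so reads may be shared between them.

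NF-kB subunits, inhibitors and targets were higher in 16 of 19 cases, with RELA lower and BCL3 and REL not called, and the median was 0.96. TRAF1 stood at 1.99 and 2.08 CPM in DMSO medium and at 28.1 and 25.7 in etoposide medium (3.72 ± 0.17, adjusted p = 8.33e-11). BIRC3, an inhibitor of apoptosis whose promoter is printed above, went from 2.09 and 2.02 to 21.6 and 22.5 CPM (3.42 ± 0.17, adjusted p = 1.99e-10). RELB, a subunit of the non-canonical arm, went from 19.4 and 17.7 to 72.2 and 76.9 CPM (2.01 ± 0.13, adjusted p = 2.10e-09). In all 3 genes the media were far apart relative to the distance between libraries A and B. Feedback inhibitors were also higher: TNFAIP3 (A20) by 2.45 ± 0.16, NFKBIE by 1.52 ± 0.13 and NFKBIA by 0.69 ± 0.08. The canonical subunit RELA went the other way by a small amount (−0.19 ± 0.07, adjusted p = 0.0472), a call made under 3 of the 12 alternatives (filterByExpr, no count limit, the 4 libraries alone) and absent under the other 9, and REL stood at 0.13 ± 0.15. For 10 of the 16 higher genes T0 lay above both media, for 4 between them and for 2 below both. Over all 16 the median level relative to T0 was −1.48 in DMSO medium and −0.24 in etoposide medium.

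Most measured chemokines and cytokines were also higher. Of 14 inflammatory chemokines 4 passed the count limit, of which 3 were higher and CX3CL1, a membrane-bound chemokine, was lower (8.63 and 6.53 against 3.52 and 3.23 CPM, −1.16 ± 0.18). CXCL8 (interleukin-8), which attracts neutrophils, went from 0.46 and 0.709 to 4.76 and 5.05 CPM (3.05 ± 0.23, adjusted p = 1.81e-08), and its T0 level was 35.0 and 34.3 CPM. CCL2, which attracts monocytes, went from 2.86 and 2.38 to 17.9 and 14.9 CPM (2.65 ± 0.17, adjusted p = 3.63e-09). CCL20 went from 0.255 and 0.304 to 3.17 and 2.44 CPM (3.31 ± 0.39, adjusted p = 4.36e-06). With no count limit 5 of 12 chemokines were higher, with a median of 0.83 against 2.85. The 3 higher genes were above both media at T0, in contrast to CCL3 and CCL4, which were not in that list.

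Of interleukins, colony-stimulating factors and PTGS2, 8 of 9 were higher and 0 lower, with a median of 1.80, although the other 6 of the 15 listed genes were too low to be kept. CSF1, the macrophage growth factor, went from 14.7 and 13.2 to 73.9 and 62.2 CPM (2.29 ± 0.10, adjusted p = 4.24e-11). IL11, a member of the interleukin-6 family, went from 8.17 and 8.5 to 27.1 and 31.0 CPM (1.80 ± 0.13, adjusted p = 1.24e-08). CSF2 (GM-CSF) had 2 counts in the DMSO libraries together and 51 in the etoposide libraries, a ratio of 26.6 (95% exact interval 6.99 to 225). Among the others, read after their values were seen, IL6 was higher by 2.36 ± 0.38, IL1A by 2.73 ± 0.49 and PTGS2 (cyclo-oxygenase-2) by 1.0 ± 0.27. LIF had a value of −0.11 ± 0.07 (adjusted p = 0.22). The median followed the count limit. A limit of 100 mean counts kept 5 of the 9, with a median of 0.59, and with filterByExpr 8 of 11 genes were higher and 1 lower, with a median of 1.0. With no limit 7 of 15 were higher and 1 lower, with a median of 0.99.

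Early response genes were divided. Of 10 AP-1 genes 5 were higher and 2 lower (median 0.48), and of 14 EGR, NR4A and related factors 7 were higher and 1 lower (median 0.44). Without etoposide B the AP-1 list had 4 higher and a median of 0.28. MAFF, a small MAF protein, went from 14.4 and 14.2 to 73.8 and 62.0 CPM (2.25 ± 0.13, adjusted p = 1.05e-09). ATF3, a stress-induced repressor, went from 27.2 and 29.2 to 66.0 and 71.6 CPM (1.28 ± 0.10), and JUNB from 45.3 and 39.3 to 75.2 and 82.8 CPM (0.90 ± 0.09). FOS was lower (−1.22 ± 0.27, adjusted p = 0.00188) and so was FOSL2 (−0.51 ± 0.07), while FOSL1 was higher (1.20 ± 0.15). Among the nuclear receptors NR4A3 went from 0.92 and 1.32 to 4.26 and 5.10 CPM (2.05 ± 0.24), and the survival gene IER3 from 133 and 139 to 329 and 313 CPM (1.24 ± 0.07, adjusted p = 8.21e-10).

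EGR1, the zinc finger factor induced by growth signals, was the named gene whose libraries disagreed most within etoposide medium, at 77.9 CPM in A and 181 in B against 213 and 175 in DMSO medium (−0.59 ± 0.24, adjusted p = 0.0602). It passed the test as lower without etoposide B (−1.32), with no count limit and in a fit of only the 4 libraries. EGFR ligands and ERK feedback genes had 9 of 15 members higher and 0 lower, with a median of 0.43. EREG (edgeR adjusted p = 0.0349), ETV5 (0.0436) and DUSP2 (0.0437) were near the threshold, and DESeq2 called 7 of the 15 higher. TGFA went from 4.65 and 4.76 to 23.7 and 26.0 CPM (2.40 ± 0.12, adjusted p = 1.03e-10), and HBEGF from 24.3 and 25.2 to 79.7 and 74.7 CPM (1.64 ± 0.09, adjusted p = 6.17e-10). Both encode ligands that bind the EGF receptor. DUSP5, a nuclear ERK phosphatase, went from 5.98 and 4.56 to 17.8 and 17.9 CPM (1.76 ± 0.19), whereas DUSP6 and SPRED2 had values of −0.11 ± 0.31 and 0.02 ± 0.10. For 7 of the 9 higher genes T0 was above both media.

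**Figure D3:**
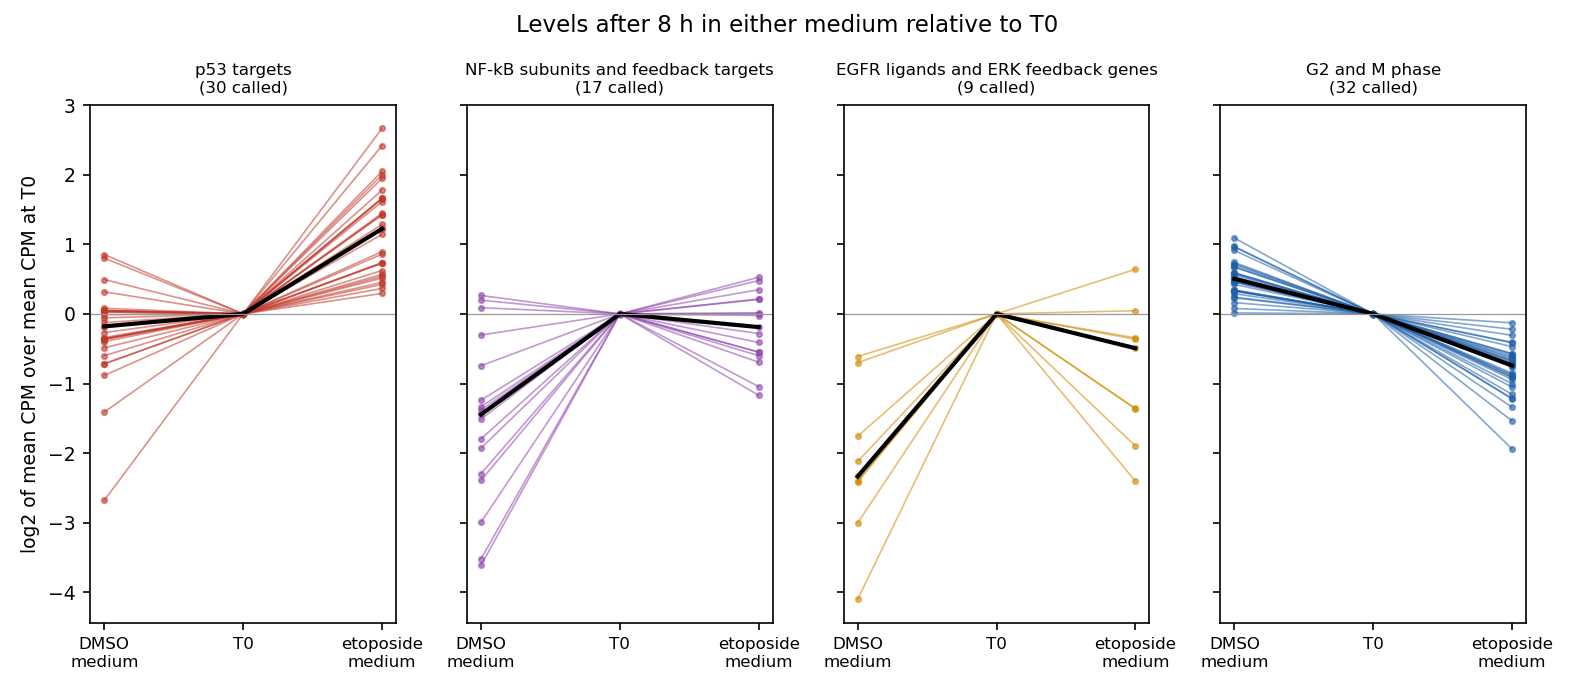
Log2 of the mean CPM in WT DMSO medium and in WT etoposide medium over the mean CPM at T0, for the called members of 4 lists; each thin line is a gene, the thick black line the median, and T0 (0 by construction) is drawn in the middle only for display. Called p53 targets end above T0 in etoposide medium (median 1.22), G2 and M phase genes are above T0 in DMSO medium and below it in etoposide medium (0.51 and −0.74), and most NF-kB and EGFR ligand genes are below T0 in DMSO medium.

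Apoptosis genes moved on both sides of the balance. Of 20 anti- and pro-apoptotic genes 14 were higher and 1, BMF, was lower, with a median of 0.56. Survival genes were higher, with BIRC3 and BCL2A1 above, and BCL2L1 (BCL-XL) at 0.52 ± 0.07, MCL1 at 0.55 ± 0.09, and CFLAR, which blocks caspase-8, at 0.84 ± 0.09. Genes that promote death were higher as well. BBC3 went from 24.1 and 23.4 to 97.1 and 107 CPM (2.10 ± 0.10, adjusted p = 9.43e-11), and FAS and PMAIP1 are given with the p53 targets. BCL2L11 (BIM) had a value of 0.01 ± 0.14.

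Targets of BMP signalling were mostly lower. Of 15 genes 9 were lower and 2 higher, with a median of −0.46. The ligand BMP4 went from 163 and 158 to 62.3 and 55.3 CPM (−1.45 ± 0.12, adjusted p = 5.73e-08). The inhibitory SMAD6 went from 27.4 and 25.8 to 11.2 and 11.7 CPM (−1.21 ± 0.14, adjusted p = 2.61e-06), and ATOH8 from 5.26 and 4.61 to 1.09 and 1.08 CPM (−2.18 ± 0.26). All 4 ID genes, which encode inhibitors of helix-loop-helix factors, were lower (ID1 −0.46, ID2 −1.17, ID3 −0.51, ID4 −0.70), whereas the ligand BMP2 was higher (1.37 ± 0.18, adjusted p = 1.61e-05). TGF-beta, SRF and YAP targets were split, with 6 of 20 higher (30.0%), 4 lower (20.0%) and a median of −0.07. Over all genes 17.6% were higher and 20.4% lower. ACTA2, smooth muscle actin, went from 4.44 and 4.35 to 20.5 and 16.0 CPM (2.06 ± 0.15). AJUBA, a LIM protein of cell junctions, went from 192 and 196 to 108 and 111 CPM (−0.83 ± 0.07).

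The list named Hippo, WNT and NOTCH targets holds WNT and NOTCH genes only. YAP targets are counted above, in the list with 6 higher and 4 lower members. There CTGF (1.31 ± 0.19), CYR61 (0.61 ± 0.07) and ANKRD1 (0.43 ± 0.08) were higher, and AMOTL2 (−0.28 ± 0.07) was lower like AJUBA. The WNT and NOTCH genes had 1 of 9 higher and 4 lower, with a median of −0.47. The NOTCH ligand JAG1 rose from 9.66 and 11.7 to 22.3 and 21.5 CPM (1.04 ± 0.13), while the target HES1 fell from 87.1 and 85.2 to 60.9 and 55.2 CPM (−0.57 ± 0.09) and the receptor NOTCH3 from 91.3 and 77.3 to 63.3 and 58.8 CPM (−0.47 ± 0.10). Without etoposide B 2 genes of this list were lower and the median was −0.29. Genes of matrix proteolysis had 10 of 15 higher and 2 lower (median 0.34). MMP3 (stromelysin-1) rose from 5.77 and 6.99 to 17.1 and 17.7 CPM (1.45 ± 0.17, adjusted p = 5.20e-06), and PLAT, tissue plasminogen activator, from 44.7 and 40.3 to 74.7 and 64.8 CPM (0.72 ± 0.10). The 2 lower members were the protease inhibitors TIMP2 (−0.31 ± 0.07) and TIMP3 (−0.37 ± 0.07). Matrix and collagen genes themselves had 2 of 17 higher and 3 lower, which is below the shares over all genes; COL5A2 fell from 87.7 and 76.6 to 51.3 and 50.2 CPM (−0.69 ± 0.09, adjusted p = 1.97e-05). COL3A1 (−0.47 ± 0.11) lost its call without DMSO A (adjusted p = 0.0542), and COL6A2 (0.28 ± 0.09) without etoposide B (0.246) or DMSO B (0.216).

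Circadian clock genes had 8 of 13 lower and 3 higher, with a median of −0.40. DBP, an output factor driven by the clock, fell from 36.5 and 35.7 to 8.17 and 8.45 CPM (−2.12 ± 0.23, adjusted p = 1.36e-06), and the repressor PER3 from 128 and 135 to 75.9 and 72.7 CPM (−0.82 ± 0.08, adjusted p = 8.03e-07). BHLHE40, another repressor, rose from 182 and 176 to 277 and 265 CPM (0.60 ± 0.07). Its paralog BHLHE41 fell (−1.42 ± 0.22) and ARNTL (BMAL1), the activator, had a value of −0.27 ± 0.15. Of 9 glucocorticoid targets 4 were higher and 2 lower, with 1 higher without etoposide A and 2 without DMSO B. SGK1, a kinase of ion transport, rose from 14.5 and 13.6 to 25.4 and 24.3 CPM (0.82 ± 0.10), and TSC22D3 (GILZ), the standard marker of glucocorticoid action, fell from 10.2 and 12.4 to 6.34 and 5.73 CPM (−0.90 ± 0.14).

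Lipid synthesis genes leaned down. Of 31 cholesterol synthesis and SREBP genes 16 were lower and 5 higher, with a median of −0.23; the lower ones were 13, 8, 7 and 13 without etoposide A, etoposide B, DMSO A and DMSO B, and the higher ones 2 without each. SREBF1, the transcription factor of fatty acid synthesis, fell from 335 and 299 to 141 and 125 CPM (−1.25 ± 0.11, adjusted p = 1.59e-07). Its targets ACACA, which makes malonyl-CoA, and SCD, the stearoyl-CoA desaturase, fell from 140 and 119 to 85.9 and 79.7 CPM (−0.64 ± 0.08) and from 787 and 756 to 553 and 527 CPM (−0.51 ± 0.07). HMGCS1, an early enzyme of cholesterol synthesis, was higher (0.21 ± 0.07). Glycolysis enzymes had 6 of 19 lower and 2 higher (median −0.11), with ENO2 falling from 75.1 and 78.3 to 53.8 and 52.9 CPM (−0.52 ± 0.10) and LDHA from 1800 and 1880 to 1490 and 1400 CPM (−0.34 ± 0.07). The lower glycolysis genes were 3 without etoposide B or DMSO A. PGAM1 (−0.24 ± 0.07) lost its call without etoposide B (adjusted p = 0.0643) or DMSO B (0.067). Hypoxia targets had 5 of 14 lower and 1 higher (median −0.15), with 3, 3 and 2 lower without etoposide A, etoposide B and DMSO B. PDK1 fell from 11.5 and 12.9 to 6.84 and 7.54 CPM (−0.77 ± 0.16) and KDM3A from 37.7 and 40.4 to 29.1 and 28.8 CPM (−0.43 ± 0.10), while PFKFB3 was higher (0.40 ± 0.11) except without etoposide B (adjusted p = 0.0878) or DMSO B (0.0628).

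Stress responses other than p53 and NF-kB were small or mixed. Of 20 HSF1 and heat shock genes 6 were lower, 1 was higher and 13 were not called, with a median of −0.07; without DMSO A 3 were lower. HSPA1A (HSP70) fell from 147 and 153 to 78.2 and 82.8 CPM (−0.90 ± 0.07, adjusted p = 4.75e-08), although it and HSPA1B are near-identical copies, and CHORDC1, a co-chaperone of HSP90, fell from 115 and 128 to 87.4 and 86.6 CPM (−0.48 ± 0.07). HSPB8 rose from 76.3 and 82.1 to 119 and 121 CPM (0.60 ± 0.09). Of 24 genes of ATF4 and the unfolded protein response 8 were lower (33.3%) and 5 higher (20.8%), with a median of 0.03. Over all genes 20.4% were lower and 17.6% higher. Under upper quartile factors 8 of the 24 were higher. DDIT4, an inhibitor of mTORC1, fell from 68.2 and 65.2 to 34.7 and 37.0 CPM (−0.90 ± 0.09), VLDLR from 25.5 and 23.7 to 13.2 and 14.2 CPM (−0.84 ± 0.10), and SESN2, also a p53 target, rose from 125 and 121 to 204 and 212 CPM (0.76 ± 0.08). DDIT3 (CHOP), the death-associated factor of that response, had a value of −0.03 ± 0.14.

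Of 16 NRF2 and oxidative stress genes 13 were not called (median 0.02). OSGIN1 rose from 33.3 and 30.5 to 55.2 and 58.3 CPM (0.83 ± 0.09) and the cystine transporter SLC7A11 fell from 47.7 and 48.5 to 29.4 and 27.2 CPM (−0.76 ± 0.13). NQO1, a classical target, had a value of 0.00 ± 0.08. NFE2L2, which encodes NRF2, was lower (−0.28 ± 0.08, adjusted p = 0.0125), a call that ended without etoposide B (0.0769), DMSO A (0.0518) or DMSO B (0.0741). Of 5 metallothionein and zinc genes 3 were higher: SLC30A1, a zinc exporter (29.7 and 29.3 against 47.3 and 55.9 CPM, 0.80 ± 0.12), MT1E (0.32 ± 0.09) and MT2A (0.32 ± 0.09). MT2A lost its call without etoposide A (0.0615) or DMSO A (0.0784) and MT1E without DMSO A (0.139), the median of the list was 0.21 without DMSO A against 0.32, and metallothioneins are close copies. Of 14 interferon-stimulated genes 5 were higher and 1 lower (median 0.51), with 3 higher without DMSO B. OAS3, a sensor of double-stranded RNA, rose from 9.09 and 8.30 to 16.0 and 16.6 CPM (0.91 ± 0.15) and IFIT3 from 0.817 and 1.21 to 2.77 and 2.67 CPM (1.41 ± 0.29). IFIT1 went the other way, from 8.33 and 9.77 to 2.63 and 2.27 CPM (−1.88 ± 0.25, adjusted p = 1.34e-05).

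Some genes of translation and respiration were slightly higher, most were not called, and the counts depended on single libraries. Cytosolic ribosomal proteins had 20 of 57 higher, 0 lower and 37 not called, against 17.6% higher over all genes, with a median of 0.17 and none above 0.46. RPL37 rose from 405 and 436 to 581 and 574 CPM (0.46 ± 0.08, adjusted p = 0.000137), RPS24 from 448 and 470 to 583 and 582 CPM (0.34 ± 0.08) and RPL26 from 126 and 133 to 160 and 162 CPM (0.31 ± 0.08). These genes have many pseudogenes that can share their reads. Ribosome biogenesis genes had 11 of 27 higher, 0 lower and 16 not called (median 0.17), among them BYSL (76.6 and 74.8 against 107 and 113 CPM, 0.54 ± 0.08), RRS1 (50.9 and 49.0 against 76.4 and 97.2 CPM, 0.79 ± 0.16) and the rRNA methyltransferase NOP2 (105 and 99.5 against 140 and 132 CPM, 0.41 ± 0.09). Complex I of the respiratory chain had 10 of 26 higher, 0 lower and 16 not called (median 0.16), led by NDUFS3 (57.1 and 53.2 against 72.8 and 74.9 CPM, 0.42 ± 0.09). NDUFA5 (0.41 ± 0.11) lost its call without DMSO A (adjusted p = 0.0897), and NDUFB9 (0.26 ± 0.07) without etoposide A (0.123) or DMSO B (0.0683).

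These 3 counts were not stable. The ribosomal proteins called higher were 15, 3, 4 and 9 without etoposide A, etoposide B, DMSO A and DMSO B, 41 under upper quartile factors and 31 in a fit of the 4 libraries alone. The ribosome biogenesis genes called higher were 6, 9, 6 and 5, and the complex I genes 4, 3, 2 and 4, without the same libraries in turn. Transcript length moved with the direction: in the shortest quartile (49 to 2098 bases) 19.9% of genes were higher and 9.55% lower, with a median of 0.087, and in the longest (4973 to 91671 bases) 14.3% were higher and 33.0% lower, with a median of −0.107. The part of length in these lists was not tested.

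**Figure D4:**
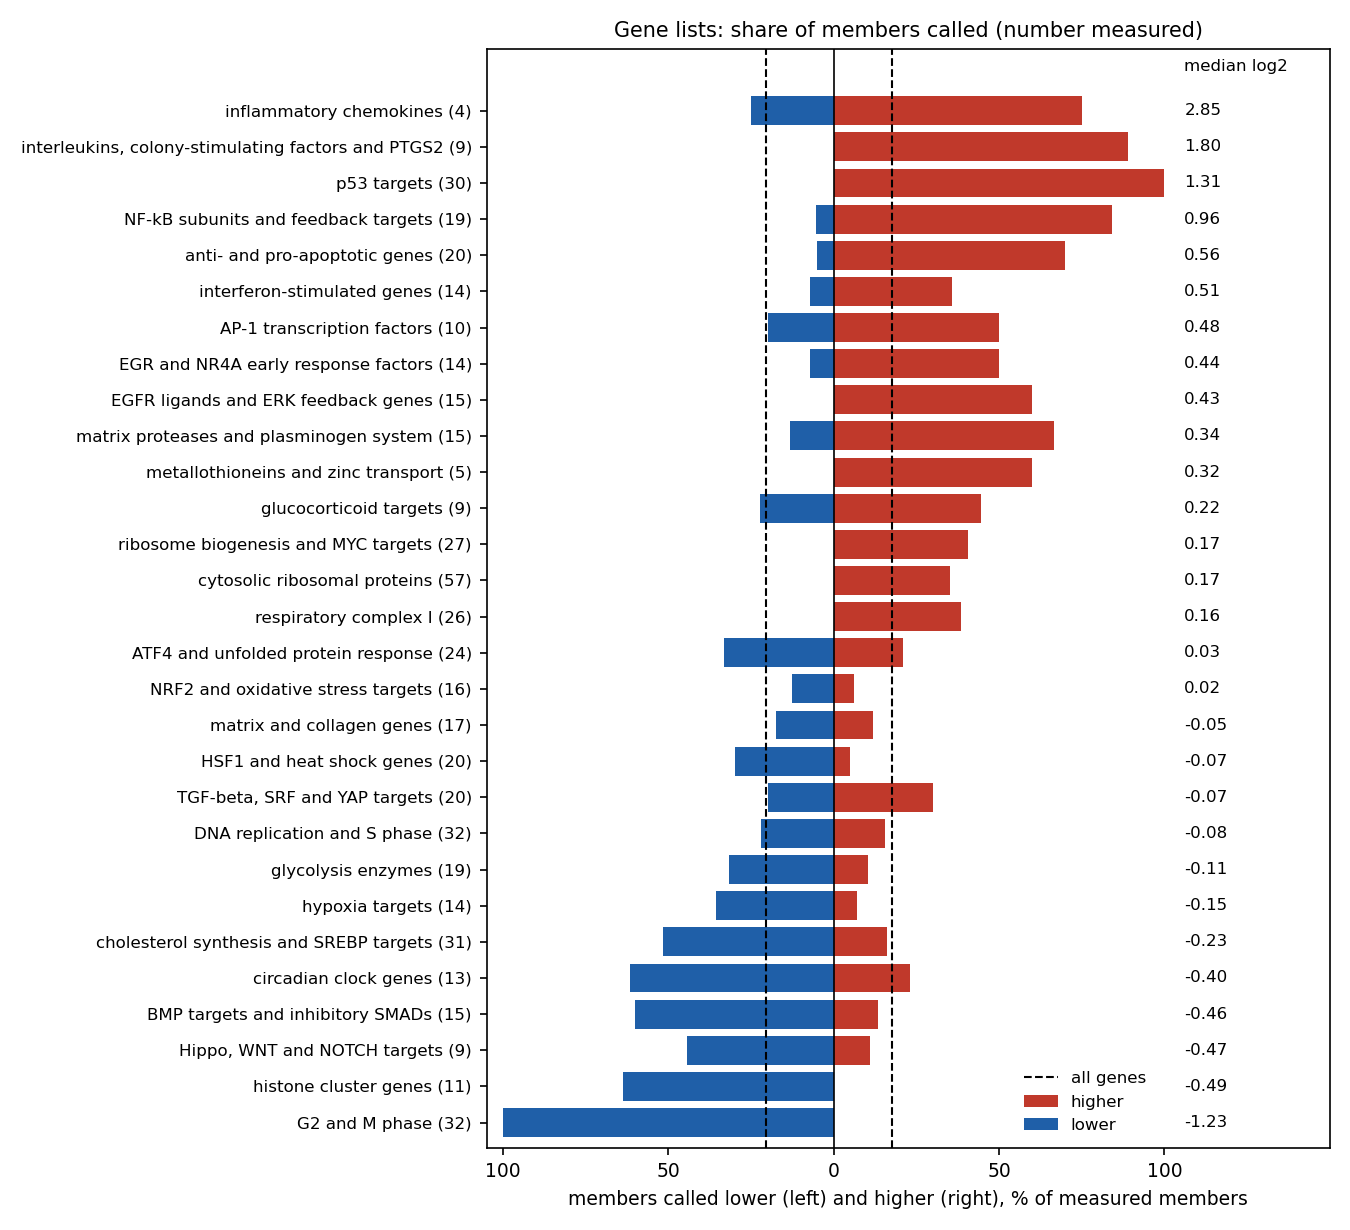
Share of the measured members of each of 29 gene lists called lower (blue, left) or higher (red, right) in WT etoposide over WT DMSO medium, in percent, with the number measured in brackets, the median log2 fold change at the right and dashed lines at the shares over all genes (20.4% and 17.6%). p53 targets reach 100% higher and G2 and M phase genes 100% lower, while the NRF2 and matrix lists stay inside the dashed lines.

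The effect in medium from p53 KO donors was set beside these values and the difference between the effects was tested; no library was shared by both contrasts. With KO donors 2784 genes were higher (20.4%) and 2763 lower (20.3%). Of the 2407 genes higher with WT donors 1554 were also higher with KO donors (64.6% of the WT list and 55.8% of the KO list), and of the 2787 lower genes 1795 were also lower (64.4% and 65.0%); 17 and 31 were called in the opposite direction. The p53 target list had a median of 1.19 with KO donors and the G2 and M phase list −1.25, near the values with WT donors. CDKN1A rose by 2.35 with KO donors and 2.01 with WT donors (difference 0.34, adjusted p = 0.159), GDF15 by 5.31 and 5.33 (difference −0.02, adjusted p = 0.985), and PLK1 changed by −2.83 and −2.68 (difference −0.15, adjusted p = 0.53). A p above the threshold does not show that the donors act alike.

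The effects differed by donor p53 state for 329 of 13638 genes (2.41%), with 228 more positive with KO donors (1.67%) and 101 more negative (0.741%). That split turned under upper quartile factors, to 145 and 217, and the count depended on single libraries: it was 140, 29, 26 and 29 without WT etoposide A, WT etoposide B, WT DMSO A and WT DMSO B, and 30, 253, 1766 and 1053 without KO etoposide A, KO etoposide B, KO DMSO A and KO DMSO B. Of these 329 genes, 86 were higher and 131 lower with WT donors, and 112 were not called there. Among the 131 lower ones, 110 had a positive difference, which includes genes that rose with KO donors. Among the 86 higher ones the difference was positive for 41 and negative for 45. The difference subtracts the WT effect, so choosing genes as lower with WT donors tilts it upward, and choosing higher genes tilts it downward. CXCL8 stood at 32.9 and 35.3 CPM in KO etoposide medium against 4.76 and 5.05 in WT etoposide medium (difference 2.83 ± 0.41, adjusted p = 0.00227), a call that ended without WT DMSO B (2.49, adjusted p = 0.0662). FOSB, an AP-1 subunit, stood at 7.03 and 6.59 CPM in KO etoposide medium against 2.43 and 1.98 in WT etoposide medium, and at 0.53 and 0.92 against 2.40 and 2.63 in the DMSO media (3.40 ± 0.36, adjusted p = 0.000205), and HBEGF rose by 2.71 against 1.64 (1.07 ± 0.13, adjusted p = 0.000638). FZD2, a WNT receptor, fell from 100 and 93.6 to 33.8 and 35.4 CPM with WT donors (−1.49) and further with KO donors (−2.50; difference −1.02 ± 0.13, adjusted p = 0.00125). FOSB, HBEGF and FZD2 kept their call in every other setting that gave a p. Among the 30 p53 targets, TP53I3 and GADD45A differed, both with the larger rise for WT donors (0.94 against 0.38, and 1.44 against 0.89). None of the NF-kB or G2 and M phase genes differed by this test.

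**Figure D5:**
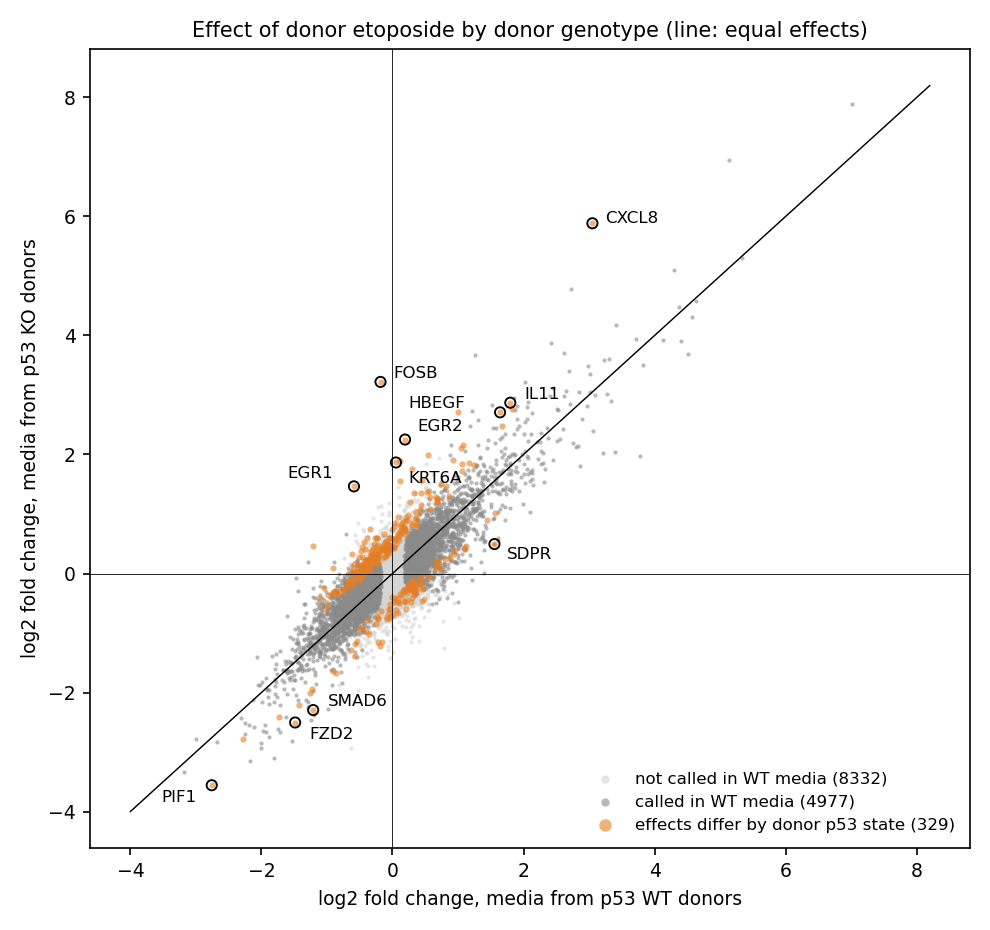
Log2 fold change of etoposide over DMSO medium with p53 KO donors (vertical) against p53 WT donors (horizontal) for 13638 genes, with the 329 genes whose effects differed in orange and the line of equal effects. CXCL8, FOSB, EGR1 and HBEGF lie above the line, and SDPR, SMAD6 and FZD2 below it, while most called genes lie along it.

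The genes called in the WT comparison were also placed against T0 by their mean levels, without a test. Of the 2407 higher genes, 1173 (48.7%) had a T0 level between the media, 691 (28.7%) below both and 543 (22.6%) above both. Of the 2787 lower genes, 1471 (52.8%) lay between, 818 (29.4%) had T0 above both and 498 (17.9%) below both.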

How the data were processed

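RNA from U2OS cells was sequenced in 10 libraries, 5 groups of 2. The authors deposited raw counts per gene symbol with a gene length in bases; hg19 and DESeq2 are named in the submitters' processing notes, while the aligner, the annotation and the strand setting were not given in the sources used here. The deposited table of the authors' own comparisons and the CRISPR screen tables were not used. Of 51 symbols altered by a spreadsheet, 50 were restored. Genes with a mean count of at least 20 over the 10 libraries (13638) were fitted with edgeR 4.0.16 in R 4.3.3 (TMM, quasi-likelihood, all 5 groups, 5 residual degrees of freedom), with Benjamini-Hochberg adjustment over all of them and a threshold of 0.05; the difference between donors was an interaction contrast. CPM values are TMM-scaled except those of markers. Depth was 16825669 to 20290764 counts; intervals cover counting error only.

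Named genes were the 15 highest and 15 lowest called genes of at least 1 CPM without overlap, the 3 of smallest p in each list, the 5 differences farthest each way, and CDKN1A, MDM2, GDF15 and TOP2A. A few further genes are not reported here. Other members were named after their values were seen. The members and lists were chosen with earlier results of these data known. Alternatives were other scalings and count limits, DESeq2 1.42.0, a replicate block, a fit of only the libraries compared, and leaving out in turn each library of the groups compared. The fit of only the libraries compared left out T0, and for the WT comparison the KO libraries too. No T0 library was left out singly, and single KO libraries were left out only for the difference between donors. Promoters came from RefSeq (GRCh38.p14), matched by symbol, and no coordinate of the deposited files was used.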

Additional observations from a re-analysis of the deposited data

Results flagged for a closer look

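The effect of etoposide medium differed between p53 KO and p53 WT donors for 17 named genes, by the interaction test of edgeR with adjustment over all 13638 genes. Values are the KO effect minus the WT effect in log2 units. More positive with KO donors were FOSB (3.40 ± 0.36), CXCL8 (2.83 ± 0.41), EGR2 (2.06 ± 0.38), EGR1 (2.05 ± 0.34), HBEGF (1.07 ± 0.13), IL11 (1.07 ± 0.18), SGK1 (0.64 ± 0.13), IER3 (0.58 ± 0.10) and the keratin KRT6A (1.81 ± 0.41). In DMSO media EGR1 stood at 213 and 175 CPM with WT donors against 69.0 and 47.6 with KO donors. In etoposide media its levels were 77.9 and 181 against 166 and 156. EGR2 stood at 2.45 and 2.08 against 0.788 and 0.665 CPM in DMSO media, and at 2.82 and 2.32 against 3.99 and 2.96 in etoposide media. More negative with KO donors were the BMP inhibitor SMAD6 (−1.08 ± 0.22), the caveolar gene SDPR (−1.06 ± 0.23), SYT12 (−1.03 ± 0.18), the WNT receptor FZD2 (−1.02 ± 0.13), CEMP1 (−0.98 ± 0.25), the helicase PIF1 (−0.80 ± 0.14), the ribosomal protein RPL37 (−0.58 ± 0.11) and SAPCD2 (−0.51 ± 0.12). The calls of FOSB, HBEGF and FZD2 held under every alternative that gave a p, and the other 14 ended under at least one. All 17 were called without KO DMSO B, the library that stood apart. IL11 ended without WT DMSO A (adjusted p = 0.0602) or WT DMSO B (0.0645), EGR1 without WT DMSO A (0.072) or KO etoposide A (0.0817), and PIF1 without WT etoposide B (0.0657) or WT DMSO B (0.0553). Of the alternatives that gave a p, CEMP1 ended in 9 of 14 and SDPR in 6 of 15. SAPCD2 and SGK1 ended in 6 of 16 alternatives each.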

How the results depend on the processing

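With 2 libraries a group, small changes rested on single libraries. Leaving out 1 library gave 3498 to 3892 called genes in the WT comparison, 1519 to 1714 higher (1519 without DMSO A) and 1979 to 2178 lower. DESeq2 called 4333. Of 109 named genes called there, 100 kept call and direction in every alternative that gave them a value (11 or 12; some had none at the limit of 100 counts). KRT6A went from 0.05 to −0.23 (adjusted p = 0.713) without WT etoposide A and to 0.26 without WT etoposide B; the cause was not tested. The difference between donors was less stable. It had 145 genes more positive and 217 more negative with KO donors under upper quartile factors, 791 genes (467 and 324) with no count limit, 108 (79 and 29) in a fit of only the libraries compared, and 152 more negative with DESeq2. Leaving out 1 library gave 26 to 1766 genes, 22 to 779 more positive and 3 to 987 more negative. The causes were not tested. Same-letter deviations of the WT DMSO and WT etoposide libraries had r = 0.04 over 9548 genes, and the other pairs of groups −0.15 to 0.24, so the letters were not taken as pairs. With the letter as a replicate block 5185 genes were called, 2397 higher and 2788 lower, and the difference had 353. Genes of few counts, such as CCL4 and CSF2, are limited by depth.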

Other observations

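Genes outside the 29 gene lists also moved, and those given here were chosen after their values were seen. RUNX2, ALPL and OLIG2 are among the cell type markers. Of 10 bone and mesenchymal markers that passed the count limit, RUNX2 and CDH2 were lower, ALPL was higher and 7 were not called. Of 4 neural markers OLIG2 was higher, SYT1 was lower and 2 were not called. Transcription factors of development went both ways. RUNX2, the osteoblast factor, was at 20.5 and 13.8 CPM in etoposide medium (−1.66 ± 0.14, edgeR adjusted p = 5.42e-08), and GLI1, the effector and target of Hedgehog signalling, from 44.2 and 43.0 to 12.2 and 11.4 CPM (−1.88 ± 0.16). SOX2 (−1.91 ± 0.38), EYA1 (−1.97 ± 0.21) and the receptor ERBB3 (−1.93 ± 0.25) were lower as well. OLIG2, a factor of oligodendrocytes, was higher (1.05 ± 0.21, adjusted p = 0.000745), and so was GRHL3, an epithelial factor (2.70 ± 0.43, adjusted p = 9.92e-05). ALPL, the bone alkaline phosphatase, was higher (0.52 ± 0.11, adjusted p = 0.00113).

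Among genes that were higher, ARC, an early response gene best known from neurons, went from 41.7 and 42.2 to 217 and 218 CPM (2.37 ± 0.10, edgeR adjusted p = 3.85e-11), and GREB1, known as an oestrogen target, from 4.65 and 4.30 to 31.0 and 33.6 CPM (2.85 ± 0.12). Both bradykinin receptors rose, BDKRB1 by 2.33 ± 0.26 and BDKRB2 by 2.70 ± 0.38, and so did the pentraxin PTX3 (2.14 ± 0.31). By symbol stem, kinesins (KIF) had 21 of 33 lower (63.6%) and 1 higher (3.03%), with a median of −0.42. Nucleoporins (NUP) had 9 of 20 lower (45.0%) and 0 higher, with a median of −0.16. Over all genes 20.4% were lower and 17.6% higher. Some of the kinesins are also in the G2 and M phase list.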
